A study of Mus musculus with 6 samples.

Results

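Satellite cells are the resident stem cells of skeletal muscle, and reserve cells are the undifferentiated cells that remain beside the myotubes in a differentiated C2C12 culture. Described here are 10 marker genes of these cells, chosen by gene symbol from the 27179 genes of the authors' 2 comparison tables: Pax7, Pax3, Msx1, Cd34, Vcam1, Megf10, Met, Sdc3, Sdc4 and Spry1. All 10 were found and all 10 passed the low-count filter of both tables. C2C12 is an immortalised mouse myoblast line, and every group carried a stably transfected short hairpin RNA (shRNA) construct and was harvested 48 h after a switch to differentiation medium with horse serum and insulin. The 3 groups, of 2 libraries each, differ in the hairpin: a non-targeting scrambled sequence (the control), one directed at BAF250A, or one directed at BRD9. The labels do not give the number of hairpins per target or whether the lines are clones. BAF250A, the product of Arid1a, is a subunit of BAF, a form of the SWI/SNF chromatin remodellers, and BRD9 is a subunit of ncBAF, another form. The series title poses whether these forms are needed differently in muscle differentiation.

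In muscle, PAX7 is the transcription factor that defines satellite cells, and PAX3 is its close relative, used mainly by embryonic muscle progenitors. Quiescent satellite cells also carry surface proteins such as CD34, VCAM1, the HGF receptor MET and the heparan sulfate proteoglycans syndecan-3 and syndecan-4, and SPRY1 dampens their growth factor signalling. When the cells are activated and differentiate, PAX7 is lost and the myogenic factors MYOD1 and MYOG take over. C2C12 cells are known for low Pax7.

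The tables give no value per library, but each read adds a fixed step to a gene's mean normalized count, and that step depends only on the library, so reads per library could be recovered where a single combination of reads fitted both tables. This succeeded for Pax7, Pax3, Msx1 and Spry1. For Cd34 and Met several combinations fitted, and Megf10, Sdc3, Sdc4 and Vcam1 had too many reads to search. These 6 genes are given as implied group means, computed from the deposited mean and fold change. The size factors of the libraries ran from 0.773 to 1.58, which is the relative depth known here, and the same 2 scrambled libraries stood in both tables. Those scrambled libraries differed from each other by a median of 0.84 on the log2 scale over 1776 genes in the BAF250A table, against 0.27 between the BAF250A libraries. In the BRD9 table the medians were 0.83 for the scrambled and 0.53 for the BRD9 libraries over 1835 genes. The series' design text speaks of biological duplicates, with no word on separate cultures, so p-values measure the spread between these libraries.

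The targeted genes set the sign of the tables, which do not name the numerator. Arid1a stood at a log2 fold change of -1.95 (SE 0.48) with BAF250A knockdown per the authors' deposited table, which is 25.8% of the scrambled level. Brd9 stood at -1.60 (SE 0.54) with BRD9 knockdown per the authors' deposited table, or 33.0% of the scrambled level. Its recovered normalized counts were 852 and 1055 in the scrambled libraries and 197 and 403 in the BRD9 libraries. Of 10 myogenic identity genes all were detected. In BAF250A knockdown 7 of them fell and 0 rose, among them Ckm, Mymk, Myh3 and Myog, and in BRD9 knockdown 2 rose, Actc1 and Myod1, and 0 fell. Of all genes tested, 17.5% fell with BAF250A and 5.11% rose with BRD9. The median log2 fold change of the 10 myogenic genes was -2.09 and 0.62 per the authors' deposited tables. Every bulk value here mixes all cells of a culture, so fewer cells of a type and less RNA per cell cannot be told apart.

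Among the 10 markers, Pax7 alone rose more than 4-fold in BRD9 knockdown, and Vcam1 alone did so in BAF250A knockdown. By the authors' deposited table for BAF250A, 2 markers rose (Vcam1 and Spry1) and 1 fell (Sdc3) at an adjusted Wald p below 0.05. Over the 16450 genes tested there, 28.7% passed: 11.2% rose and 17.5% fell. By the authors' deposited table for BRD9, 3 markers rose (Pax7, Megf10 and Vcam1) and the same Sdc3 fell. Over the 17198 genes tested, 14.4% passed: 5.11% rose and 9.33% fell. The markers' median log2 fold change was 0.50 with BAF250A and 0.58 with BRD9 per the authors' deposited tables. Beside these, the medians were -0.18 and -0.15 over all genes tested, but 0.035 and 0.045 over genes of mean 100 or more. With adjustment among tested genes of that mean alone, 13.4% rose and 14.3% fell with BAF250A. With BRD9, 6.24% of them rose and 8.11% fell. Pax3 in both tables and Pax7 in the BAF250A table lie under that mean. Both tables use the same scrambled libraries, so like values in them are not independent of each other. No gene was called at an adjusted Wald p below 0.05 with a log2 fold change under 1.02 (BAF250A) or 1.29 (BRD9) in size. Changes below these sizes could thus not be detected. Under an empirical null, in which the observed spread of all Wald scores sets the scale, Pax7 with BRD9 kept its call (adjusted p 1.16e-05), and the other 6 calls did not pass (adjusted p 0.199 to 0.661).

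**Figure D1:**
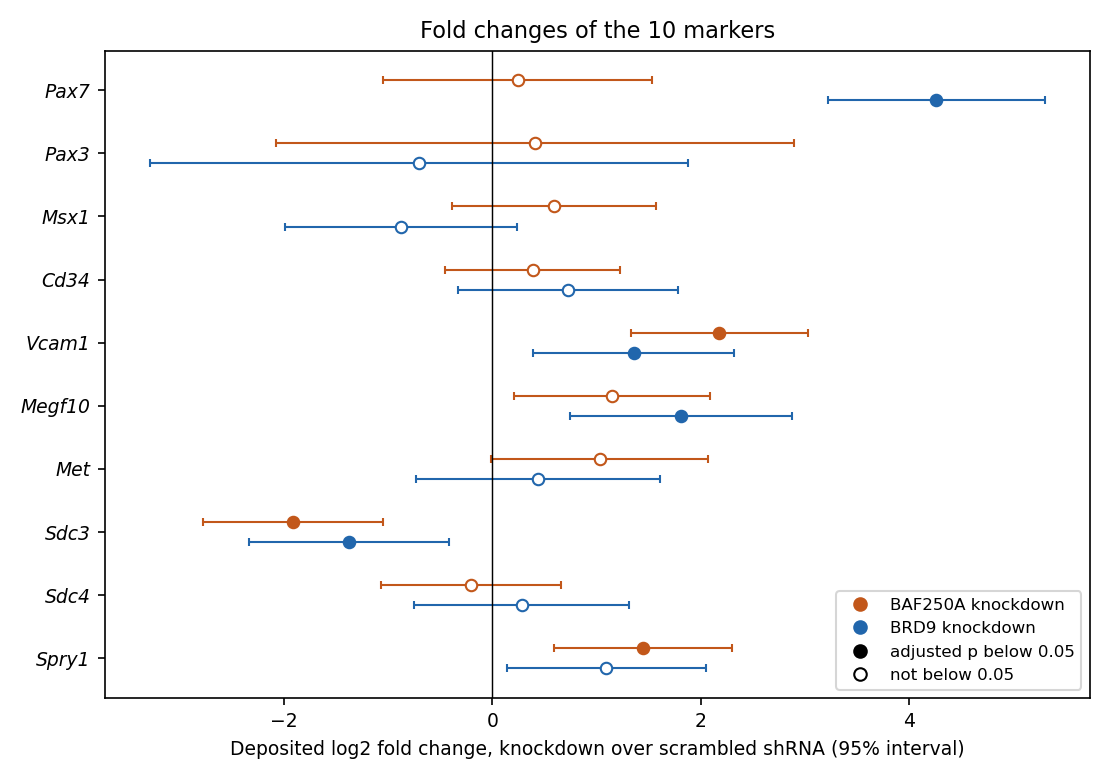
Deposited log2 fold change of knockdown over scrambled shRNA (x axis) for the 10 markers (y axis), with bars for the 95% interval from the deposited standard error. Filled points passed an adjusted Wald p below 0.05. Pax7 lies at 4.26 with BRD9 and 0.24 with BAF250A knockdown, and Sdc3 lies left of 0 in both.

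Levels in the scrambled cells spanned more than 3 orders of magnitude. Per kilobase of exon, the implied mean normalized count in the BAF250A table was 6397 for Sdc3, 2174 for Sdc4, 648 for Cd34 and 312 for Vcam1. Below them came Megf10 at 174, Met at 149 and Spry1 at 144, which differed from one another by less than the median spread between the scrambled libraries. Msx1 followed at 95.1, below Met and Spry1 by less than that spread, and then Pax7 at 8.05 and Pax3 at 1.43. Recovered libraries gave 142 ± 5.36 for Spry1, 94.5 ± 26.0 for Msx1, 7.99 ± 2.48 for Pax7 and 1.35 ± 1.57 for Pax3 on the same per-kilobase scale (SD, n = 2). The ranges of mean ± SD of these 4 did not meet. Thus the 2 Pax genes were the lowest of the set and the 2 syndecans the highest in the scrambled cells.

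**Figure D2:**
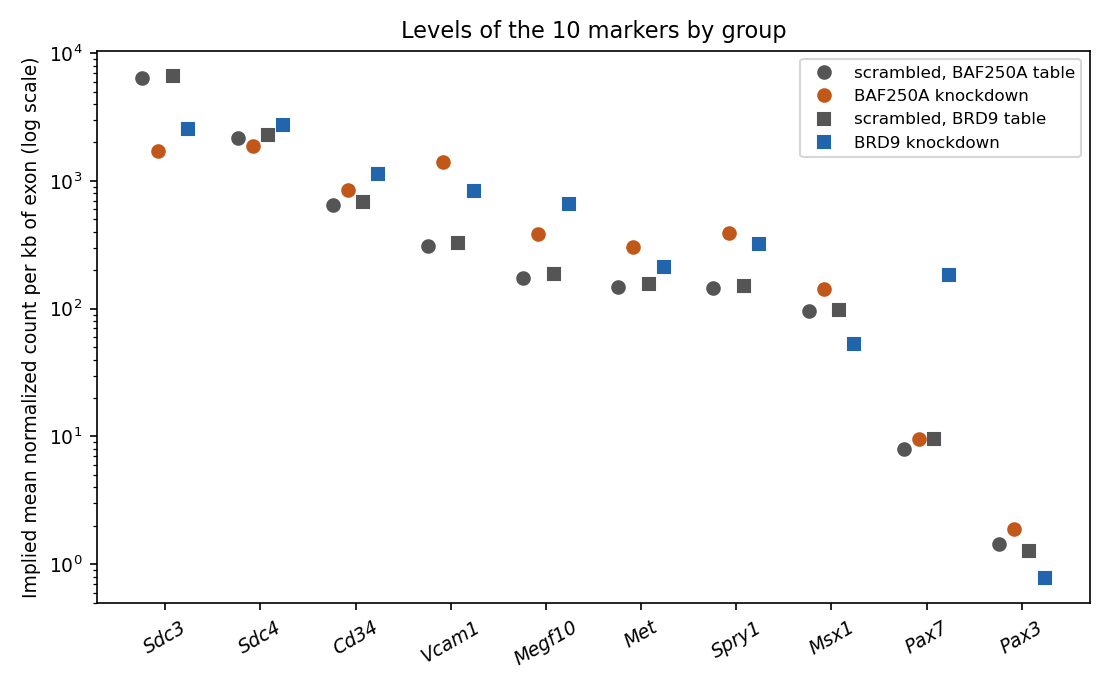
Implied mean normalized count per kilobase of exon (y axis, log scale) for the 10 markers (x axis) in each group, with circles from the BAF250A table and squares from the BRD9 table. In the scrambled cells Sdc3 stands highest and Pax3 lowest, and Pax7 moves up from 9.52 to 182 with BRD9 knockdown.

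Of the transcription factors, Pax7 (gene 18509, protein coding, minus strand of chromosome 4 at 139737059 to 139833530 in mm10) had recovered normalized counts of 60.9 and 37.4 in the scrambled libraries and 920 and 1231 in the BRD9 knockdown libraries. These were 90 and 40 reads against 774 and 963 reads. Both BRD9 libraries stood far above both scrambled libraries, and even the closest pair differed 15.1-fold. The means were 49.2 ± 16.6 and 1076 ± 220 (SD, n = 2), a 21.9-fold ratio. Among 2159 genes of mean 60 to 350 whose reads were recovered, 15.7% also had both BRD9 libraries above both scrambled libraries. Pax7 itself, with a mean of 51.5 in the BAF250A and 562 in the BRD9 table, lies outside that range. With 2 libraries against 2, an exact two-sided permutation test cannot go below a p of 0.333, so the call rests on the Wald test fitted over all genes. Pax7 rose by 4.26 (SE 0.53) per the authors' deposited table, with an adjusted Wald p of 7.05e-14. It ranked 90 of 17198 genes by size of rise.

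In BAF250A knockdown Pax7 stood near the control level. Its recovered normalized counts were 57.1 and 36.6 in the scrambled and 47.4 and 64.7 in the BAF250A libraries, and the groups overlapped. The means were 46.9 ± 14.5 and 56.1 ± 12.2 (SD, n = 2). Its log2 fold change was 0.24 (SE 0.66), with an adjusted Wald p of 0.824, per the authors' deposited table. The 95% interval ran from -1.05 to 1.53 on the log2 scale. A fall of up to 2-fold, or a rise of up to 1.53 on that scale, thus cannot be told from none. The difference between the knockdowns was tested over the 16311 genes present in both tables, of which 2.54% passed an adjusted p below 0.05, 1.99% being higher and 0.552% lower with BRD9. Pax7 was 4.02 higher with BRD9 than with BAF250A (SE 0.85, 95% interval 2.36 to 5.68), with a Benjamini-Hochberg adjusted p of 0.000286 from the two-sided normal test of the difference. It was the 1 marker of 10 that passed this test.

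Pax3 (gene 18505, minus strand of chromosome 1 at 78101267 to 78197136), the paralog of Pax7, was close to the limit of detection. Its reads were 15 and 1 in the scrambled, 6 and 6 in the BAF250A and 4 and 0 in the BRD9 libraries. The normalized counts were 9.52 and 0.914 against 7.49 and 7.76 in the BAF250A table, and 10.2 and 0.936 against 4.76 and 0 in the BRD9 table. The scrambled libraries bracketed the BAF250A libraries, and the groups overlapped in the BRD9 table as well. Log2 fold changes were 0.41 (SE 1.27) and -0.71 (SE 1.32) per the authors' deposited tables, with adjusted Wald p of 0.846 and 0.805. The log2 ratio of library means was 0.55 for BAF250A, 3.06 without scrambled library 1 and -0.32 without scrambled library 2. For BRD9 it was -1.22, and 1.35 without scrambled library 1, so in each comparison leaving out a single control library turned the direction.

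PAX7 and PAX3 both have a paired domain and a homeodomain of similar sequence, so reads of one could in principle be counted for the other. The longest identical stretch between their annotated transcripts was 26 bases and lay in the coding sequence of both, at position 696 of the Pax7 and 168 of the Pax3 transcript. It is shown because its length sets which reads could be ambiguous.
Pax7 and Pax3: ctggaagtgtccacccctcttggcca
No 31-base word of Pax7 occurred in the transcripts of any other gene (0 of 5858 words), and 1.0% of the words of Pax3 did. Words were compared on the transcript strand only, so antisense sequence was not searched.

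Msx1 (gene 17701, minus strand of chromosome 5 at 37820491 to 37824585) encodes a homeodomain repressor that keeps myoblasts undifferentiated. Its recovered normalized counts were 147 and 218 in the scrambled and 240 and 318 in the BAF250A libraries. In the BRD9 table they were 157 and 224 in the scrambled and 93.9 and 107 in the BRD9 libraries. The BAF250A libraries stood above the scrambled ones and the BRD9 libraries below, by 1.53-fold and to 0.529 of the scrambled mean. Of the 2159 recovered genes, 23.3% were above in the same way with BAF250A and 40.5% below with BRD9, so such a separation was common. Neither change passed the Wald test: the log2 fold changes were 0.59 (SE 0.50, adjusted p 0.402) and -0.88 (SE 0.57, adjusted p 0.361) per the authors' deposited tables. The difference between the knockdowns was -1.47 (95% interval -2.95 to 0.0153), with an adjusted p of 0.614 by the normal test of the difference.

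**Figure D3:**
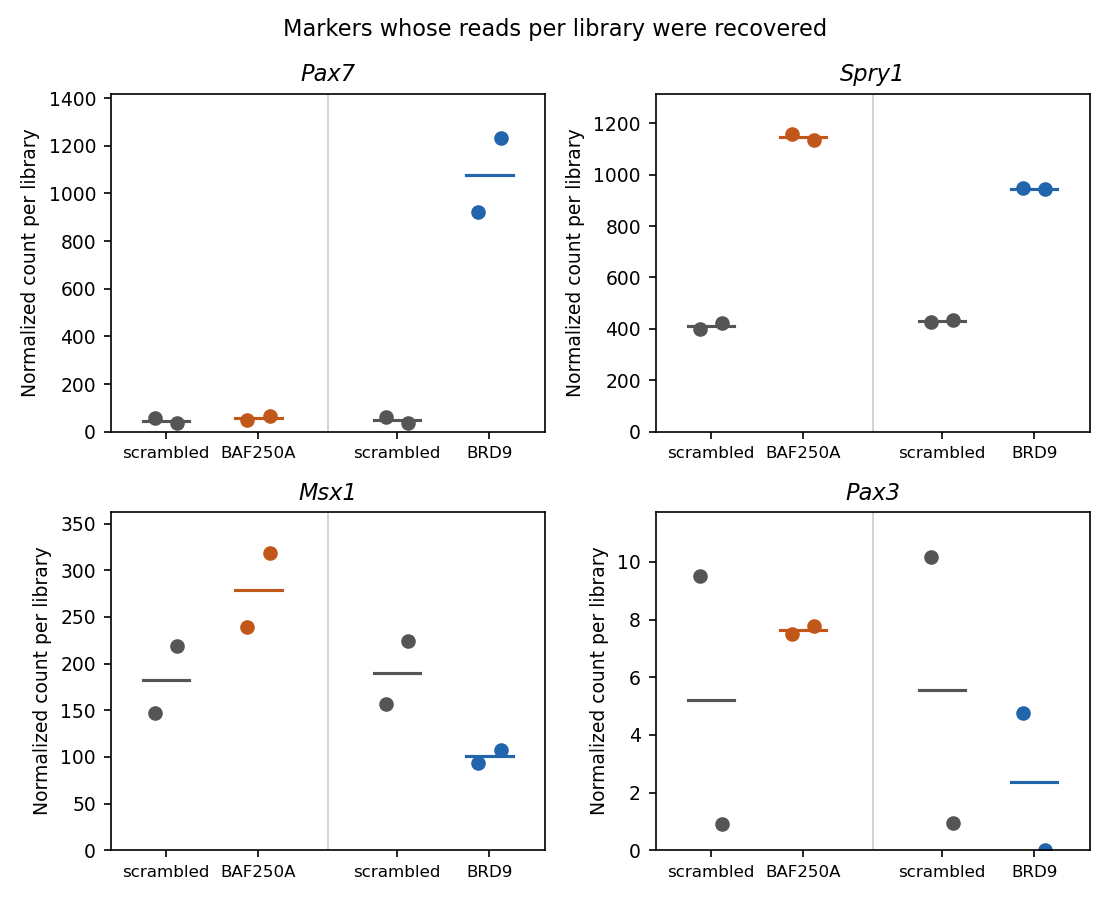
Recovered normalized count (y axis, from 0) in every library for Pax7, Spry1, Msx1 and Pax3, with the BAF250A table on the left and the BRD9 table on the right of each panel. Points are libraries and lines are means of 2. Pax7 is high only in the BRD9 libraries (920 and 1231), Spry1 is above the scrambled libraries in both knockdowns, and the Pax3 groups overlap.

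Of the surface proteins, Vcam1 (gene 22329, minus strand of chromosome 3 at 116110020 to 116129688) encodes the adhesion receptor that binds integrin alpha-4 beta-1 and marks quiescent satellite cells. Its implied mean normalized count was 1553 in the scrambled cells and 7032 in BAF250A knockdown, and 1627 and 4162 in the BRD9 table. Vcam1 rose by 2.18 (SE 0.43), or 4.53-fold, with BAF250A per the authors' deposited table (adjusted Wald p 5.93e-06). With BRD9 it rose by 1.35 (SE 0.49), or 2.56-fold, per the authors' deposited table (adjusted Wald p 0.0430). The BRD9 call sits at the threshold: centring the fold changes on their median gave an adjusted p of 0.0533 and testing every gene without the low-count filter gave 0.0519, in a range of 0.0430 to 1.0 over all alternatives. The knockdowns differed in Vcam1 by -0.82 (95% interval -2.11 to 0.462; adjusted p of the normal test 0.99996), an interval that includes both no difference and a 4-fold one.

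Megf10 (gene 70417, plus strand of chromosome 18 at 57133090 to 57297467) encodes a transmembrane protein with EGF-like repeats that promotes satellite cell proliferation over differentiation. Its implied mean went from 1304 to 2889 with BAF250A and from 1415 to 4969 with BRD9. Megf10 rose by 1.81 (SE 0.54), or 3.51-fold, with BRD9 per the authors' deposited table (adjusted Wald p 0.00842). With BAF250A it stood at 1.15 (SE 0.48) per the authors' deposited table, with an adjusted Wald p of 0.0572. The difference between the knockdowns was 0.66 (95% interval -0.758 to 2.09, adjusted p of the normal test 0.99996).

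Cd34 (gene 12490, plus strand of chromosome 1 at 194938821 to 194961292) encodes a sialomucin found on quiescent satellite cells, blood progenitors and endothelium. Its implied means were 1690 and 2213 in the BAF250A table and 1790 and 2957 in the BRD9 table. The log2 fold changes of 0.39 (SE 0.43) and 0.72 (SE 0.54) did not pass the Wald test per the authors' deposited tables, with adjusted p of 0.543 and 0.440. Cd34 was well expressed in all groups, above Vcam1 per kilobase of exon in the scrambled cells and below it in BAF250A knockdown (848 against 1411 per kilobase). Exons of Cd34, Vcam1, Sdc3 and Spry1 each overlap an exon of another annotated gene (Gm16897, Gm43109, Gm26716 and Gm42922). No source used here says whether counting used strand, so reads of such pairs cannot be told apart. On the transcript strand, other genes shared 2.78% of the 31-base words of Cd34, 1.05% of those of Vcam1 and 0.715% of those of Sdc4. For the other markers except Pax3 the share was 0, and antisense sequence was not searched.

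Met (gene 17295, plus strand of chromosome 6 at 17463349 to 17573980) encodes the receptor for hepatocyte growth factor, the classical activating signal of satellite cells. Its implied means were 1012 and 2065 in the BAF250A table and 1062 and 1437 in the BRD9 table. The log2 fold changes were 1.03 (SE 0.53, adjusted Wald p 0.136) and 0.44 (SE 0.60, adjusted Wald p 0.725) per the authors' deposited tables. Neither passed, and for BAF250A the 95% interval of -0.00966 to 2.07 includes both no change and a 4-fold rise. Of the HGF and MET pathway genes (ligand, activating proteases, inhibitors and adaptors), 2 of 11 tested rose and 0 fell with BAF250A, and 1 of 13 rose and 0 fell with BRD9. Beside these, 11.2% of all genes tested rose and 17.5% fell with BAF250A, and 5.11% rose and 9.33% fell with BRD9. Spint1, an inhibitor of the protease that activates HGF, rose by 3.03 (SE 0.67) and 3.22 (SE 0.72) per the authors' deposited tables. Its recovered normalized counts were 7.62 and 15.5 in the scrambled against 102 and 106 in the BAF250A libraries, and 193 and 76.7 in the BRD9 libraries. The adaptor gene Shc1 rose by 1.26 (SE 0.44) with BAF250A per the authors' deposited table. The list's median log2 fold change was 0.32 and 0.39 per the authors' deposited tables.

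The 2 syndecans are co-receptors for FGF and HGF on satellite cells. Sdc3 (gene 20970, plus strand of chromosome 4 at 130792537 to 130826318) was the only one of the 10 that fell, and per kilobase of exon it was the most abundant marker in the scrambled cells. In both knockdowns its implied level was close to that of Sdc4, at 1700 against 1887 per kilobase with BAF250A and 2555 against 2761 with BRD9. These gaps were smaller than the median spread between the libraries of each knockdown. The implied mean of Sdc3 went from 31810 to 8452 with BAF250A and from 33032 to 12707 with BRD9, which is 26.6% and 38.5% of the scrambled level. Sdc3 fell by 1.91 (SE 0.44, adjusted Wald p 0.000127) and 1.38 (SE 0.49, adjusted Wald p 0.0361) per the authors' deposited tables. The knockdowns differed by 0.53 (95% interval -0.755 to 1.82), with an adjusted p of 0.99996 by the normal test of the difference.

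Sdc4 (gene 20971, minus strand of chromosome 2 at 164424247 to 164443188) did not follow its paralog. Its implied means were 5344 and 4637 in the BAF250A table and 5594 and 6787 in the BRD9 table. The log2 fold changes were -0.20 (SE 0.44, adjusted Wald p 0.775) and 0.28 (SE 0.53, adjusted Wald p 0.808) per the authors' deposited tables. Among the other syndecans, Sdc2 rose by 1.63 (SE 0.47) with BAF250A per the authors' deposited table and stood at 0.40 (SE 0.53) with BRD9. Sdc1 stood at -0.26 (SE 0.49) and 0.24 (SE 0.53) per the authors' deposited tables.

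Spry1 (gene 24063, plus strand of chromosome 3 at 37639947 to 37644599) encodes an intracellular inhibitor of receptor tyrosine kinase signalling that is needed for satellite cells to return to quiescence. Its libraries were the most even of the 4 recovered markers. The normalized counts were 401 and 423 in the scrambled and 1158 and 1133 in the BAF250A libraries, and they were 428 and 433 against 946 and 943 in the BRD9 comparison. Both knockdowns stood above the scrambled cells without overlap, as did 23.3% (BAF250A) and 15.7% (BRD9) of the 2159 recovered genes. The means were 412 ± 15.6 and 1146 ± 17.6 (SD, n = 2) for BAF250A, a 2.78-fold ratio. For BRD9 the means were 431 ± 3.91 and 945 ± 2.10 (SD, n = 2), a 2.19-fold ratio. Spry1 rose by 1.44 (SE 0.43, adjusted Wald p 0.00493) with BAF250A per the authors' deposited table. With BRD9 it stood at 1.09 (SE 0.49) per the authors' deposited table, and the adjusted Wald p of 0.127 did not pass. The difference between the knockdowns was -0.35 (95% interval -1.63 to 0.929, adjusted p of the normal test 0.99996).

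Promoter windows of 250 bases before the annotated start were available from RefSeq (GRCm38.p6, the assembly of mm10) for 7 of the 10 markers: Pax7, Msx1, Cd34, Met, Sdc3, Sdc4 and Spry1. Those of Sdc3 and Spry1 are shown because they contrast the marker that fell with the marker whose libraries were most even. Each reads along the gene's strand, and capitals mark E-boxes (CANNTG), the letters that MYOD1 and MYOG bind.
Sdc3, chr4:130792287-130792536, plus strand: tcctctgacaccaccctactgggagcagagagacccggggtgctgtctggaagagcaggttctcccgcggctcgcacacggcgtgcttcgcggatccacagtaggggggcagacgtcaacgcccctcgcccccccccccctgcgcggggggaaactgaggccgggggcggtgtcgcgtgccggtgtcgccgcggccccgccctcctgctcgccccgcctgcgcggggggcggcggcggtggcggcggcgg
Spry1, chr3:37639697-37639946, plus strand: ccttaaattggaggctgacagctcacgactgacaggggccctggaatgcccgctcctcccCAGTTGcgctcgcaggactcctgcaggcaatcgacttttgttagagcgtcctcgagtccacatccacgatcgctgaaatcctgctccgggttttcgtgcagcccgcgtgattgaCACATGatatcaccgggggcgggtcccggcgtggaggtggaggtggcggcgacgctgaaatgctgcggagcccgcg
The Sdc3 window held 0 E-boxes and the Spry1 window 2, and the Spry1 window overlaps an exon of Gm42922. Over 32851 promoter windows of the same length, 66.2% held at least 1 E-box on either strand. The AP-1 letters TGANTCA were in 6.75%, the TEAD letters GGAATG in 12.6% and the octamer TTTGCAT in 4.12% of all windows. Spry1 held 1 TEAD match, Met 1 E-box and 1 AP-1 match, and Msx1 1 E-box, while the windows of Cd34, Pax7, Sdc3 and Sdc4 held none of the 4 motifs. GC content was 76.4% for Sdc3, 65.2% for Pax7, 62.4% for Spry1 and 46.4% for Cd34, beside a median of 52.4% over all windows. These matches describe letters in 1 window and not binding.

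Genes most like Pax7 were sought among 11496 genes of mean normalized count 100 or more, by the distance between pairs of log2 fold changes over the 2 comparisons. The nearest was Sox8, a SoxE transcription factor gene of satellite cells, at a distance of 0.355, followed by Fndc5 at 0.856 and Rbm24 at 0.951. Fndc5 encodes the precursor of irisin and Rbm24 a muscle RNA-binding protein. Sox8 stood at 0.58 (SE 0.56) with BAF250A and rose by 4.17 (SE 0.58) with BRD9 per the authors' deposited tables. Its recovered normalized counts were 142 and 72.1 in the scrambled and 1310 and 3184 in the BRD9 libraries. The BRD9 libraries of Sox8 differed more from each other than those of Pax7, and both lay above the scrambled libraries. Fndc5 had 0.10 (SE 0.49) and 3.42 (SE 0.51), and Rbm24 had 1.04 (SE 0.50) and 4.78 (SE 0.51), per the authors' deposited tables.

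Other genes of satellite cells, taken from a list of markers and regulators outside the 10, moved in both directions. With BAF250A, 3 of 21 tested rose (Tenm4, Fgfr4 and Cav1) and 4 fell (Nes, Myf5, Cdh15 and Cd82), with a median log2 fold change of -0.05 per the authors' deposited table. These counts are close to the shares over all genes tested, of which 11.2% rose and 17.5% fell. With BRD9, 6 of 23 tested rose (Fgfr4, Sox8, Tenm4, Heyl, Hey1 and Cav1) and 1 fell (Myf5), with a median of 0.82 per the authors' deposited table. The shares over all genes tested with BRD9 were 5.11% risen and 9.33% fallen. Fgfr4, the FGF receptor of satellite cells and myoblasts, rose by 4.36 (SE 0.45) and 4.76 (SE 0.51) per the authors' deposited tables. Its recovered normalized counts were 65.4 and 71.3 in the scrambled against 1388 and 1607 in the BAF250A libraries, and 1719 and 2681 in the BRD9 libraries. Tenm4, a teneurin surface protein gene, rose by 4.85 (SE 0.54) and 3.67 (SE 0.62), and the caveolin gene Cav1 by 3.56 (SE 0.46) and 1.54 (SE 0.52), per the authors' deposited tables. The Notch target genes Hey1 and Heyl rose by 2.60 (SE 0.57) and 2.95 (SE 0.51) with BRD9 per the authors' deposited table. With BAF250A they stood at 0.19 (SE 0.52) and -0.89 (SE 0.45) per the authors' deposited table. Myf5, the myogenic factor of activated satellite cells, fell by 1.83 (SE 0.56) and 1.78 (SE 0.62) per the authors' deposited tables.

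**Figure D4:**
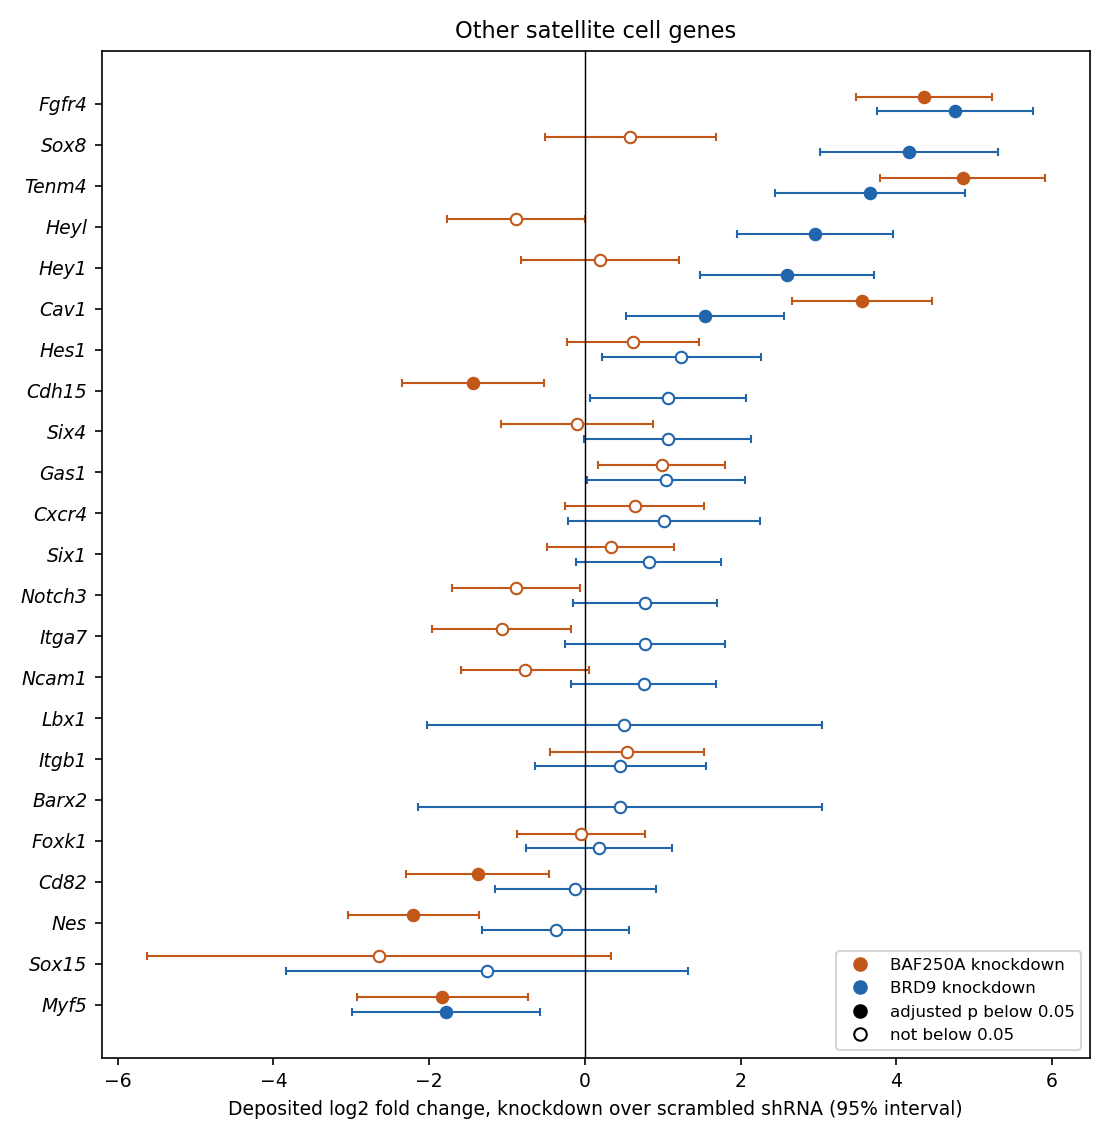
Deposited log2 fold change of knockdown over scrambled shRNA (x axis, bars for the 95% interval) for the other satellite cell genes tested (y axis, ordered by the BRD9 value). Filled points passed an adjusted Wald p below 0.05. Fgfr4 and Tenm4 lie above 3 in both knockdowns, Sox8 at 4.17 with BRD9 and 0.58 with BAF250A, and Myf5 below -1.5 in both.

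Of the FGF signalling genes, the pathway that SPRY1 and the syndecans modulate, 4 of 13 tested rose and 2 fell with BAF250A, and 2 of 13 rose and 0 fell with BRD9. All genes tested gave 11.2% risen and 17.5% fallen with BAF250A, and 5.11% and 9.33% with BRD9. The medians of the FGF list were 0.88 and 0.65 per the authors' deposited tables. Besides Fgfr4, the receptor gene Fgfr2 rose by 2.74 (SE 0.61) and 2.32 (SE 0.67), and the ligand gene Fgf7 rose by 1.80 (SE 0.50) with BAF250A, per the authors' deposited tables. With BRD9, Fgf7 stood at -0.73 (SE 0.56), which did not pass, per the authors' deposited table. Of the partners of VCAM1 and the syndecans, 1 of 12 tested rose and 2 fell with BAF250A, and 0 of 12 passed with BRD9. The integrin genes Itgb7 and Itga4, whose products pair with each other and bind VCAM1, fell by 5.01 (SE 0.65) and 2.02 (SE 0.58) with BAF250A per the authors' deposited table. Reads of both genes were uneven in the controls. Itgb7 had normalized counts of 226 and 648 in the scrambled and 12.5 and 10.3 in the BAF250A libraries. Itga4 had 832 and 262 in the scrambled and 151 and 105 in the BAF250A libraries. With BRD9, Itgb7 stood at -1.56 (SE 0.67) and Itga4 at -1.48 (SE 0.63) per the authors' deposited table. The kinase gene Prkca, whose product binds syndecan-4, rose by 1.39 (SE 0.51) with BAF250A per the authors' deposited table.

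Among 19 tested family relatives of the markers, 5 rose and 2 fell with BAF250A, and 1 rose and 0 fell with BRD9, with medians of -0.05 and 0.40 per the authors' deposited tables. For all genes tested the shares were 11.2% risen and 17.5% fallen with BAF250A, and 5.11% and 9.33% with BRD9. Megf6 rose by 3.98 (SE 0.84) and 4.88 (SE 0.93) per the authors' deposited tables. In the BRD9 libraries its normalized counts were 14.3 and 317 against 3.38 and 2.81 in the scrambled libraries, so that value rests mainly on 1 library. Msx3, a relative of Msx1, rose by 3.90 (SE 1.03) with BAF250A per the authors' deposited table, at a mean normalized count of 20.3. Podxl, a sialomucin gene of the Cd34 family, fell by 3.03 (SE 0.63) with BAF250A and stood at 0.65 (SE 0.57) with BRD9 per the authors' deposited tables.

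CD34 and VCAM1 also occur on endothelial cells, blood cells and fibro-adipogenic progenitors, so marker lists of these cells were read beside them. The background over all genes tested was 11.2% risen and 17.5% fallen with BAF250A, and 5.11% and 9.33% with BRD9. Of the endothelial markers 0 of 4 tested rose and 1 fell (Kdr) with BAF250A, and 0 of 6 rose and Kdr fell with BRD9. Their summed implied mean was 337 in the scrambled and 336 in the BAF250A cells, and 362 and 289 in the BRD9 table, with Emcn at 0. Behind the like sums for BAF250A, Kdr had normalized counts of 226 and 133 in the scrambled and 0 and 0 in the BAF250A libraries. Egfl7 had 80.0 and 174 against 277 and 366, and its log2 fold change of 1.30 (SE 0.54) did not pass (adjusted Wald p 0.0534) per the authors' deposited table. Of the blood cell markers 2 of 3 tested fell with BAF250A (Cd68 and Cd14), and with BRD9 the same 2 of 4 fell and Itgam rose. Their sums, mostly Cd14, were 1119 and 427 in the BAF250A table and 1159 and 345 in the BRD9 table, with Kit at 0. Ptprc had 5 and 0 reads and Adgre1 2 and 0 in the scrambled libraries, close to the limit of detection. Itgam had 3 and 1 reads in the scrambled and 51 and 12 in the BRD9 libraries. Of the fibro-adipogenic progenitor markers, Thy1 and Pdgfra rose and Ly6a fell among 7 tested with BAF250A, and Ly6a fell among 6 tested with BRD9. Their sums, mostly Ly6a, went from 36764 to 9759 and from 38067 to 10017. Pdgfra rose by 2.69 (SE 0.47) with BAF250A, beside the rise of Vcam1, per the authors' deposited table. The part of these lists in the values of Cd34 and Vcam1 was not tested.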

How the data were processed

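RNA from 6 libraries of C2C12 cells was sequenced. Software listed without roles is, per the submitters' processing notes, DESeq2, RSEM, Bowtie, StringTie and HISAT, with build mm10. Per the file headers, the authors deposited for each gene a mean normalized count (a signal averaged over 4 libraries), a log2 fold change with its standard error, a Wald score, a p-value and an adjusted p-value. Calls are the authors' Wald test at an adjusted p below 0.05. The tables do not name the numerator, and the sign was read from Arid1a and Brd9. Libraries for the shRNA against BAF180 were not analysed here.

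The step that 1 read adds to a mean was found for each library from genes with few reads. All 5537 and 5533 genes of low mean tried in the 2 tables resolved into whole reads. Larger genes were resolved from both tables together, with the deposited fold change as a further constraint. The total count per library was not computed. Implied means take the deposited fold change as a ratio of group means. Deposited fold changes lie slightly nearer 0 than ratios of recovered means (-0.88 against -0.92 for Msx1 with BRD9). The gap is wider at few reads (-0.71 against -1.22 for Pax3 with BRD9). Ratios of larger genes, Pax7 among them, were held by the constraint and cannot show this gap. The knockdowns were compared by the difference of their log2 fold changes over the root of the summed squared errors, read as a normal score (two-sided), and Benjamini-Hochberg adjustment ran over all genes tested in both. The tables were normalized separately, and the shared controls make this test conservative. The fold change constraint used for larger genes was set on genes of mean 60 to 350 with a log2 fold change of at most 2.5 in size. For larger means or changes, such as those of Pax7 with BRD9, it was not tested. Gene positions and exon lengths come from GENCODE and promoters from RefSeq, all on GRCm38.

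The markers and gene lists were chosen with earlier results of these data known. Named are all 10 markers, up to 3 called genes of the largest change per list and table, the 3 genes nearest Pax7, and the targeted genes. Other list genes were named after their values were seen. Alternatives were Bonferroni adjustment, a stricter threshold of 0.01, a minimum mean of 100, centring, an empirical null, no low-count filter and, for the difference, correlated errors. Centring subtracted the median log2 fold change of genes of mean 100 or more. Computation used Python 3.11.15, numpy 2.4.6, pandas 2.3.3, scipy 1.17.1, numba 0.67.0 and matplotlib 3.10.9.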

Additional observations from a re-analysis of the deposited data

Results flagged for a closer look

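The effect on Pax7 differed between the knockdowns by a test of the difference itself. Its log2 fold change was 4.02 higher with BRD9 than with BAF250A (SE 0.85), with a Benjamini-Hochberg adjusted p of 0.000286 over 16311 genes, and 2 of 2 BRD9 libraries lay above every scrambled and BAF250A library. It ranked 169 of those genes when ordered from the most to the least higher with BRD9. The other 9 markers did not pass this test.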

How the results depend on the processing

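Pax7 in BRD9 knockdown kept its call under all 6 alternatives, with adjusted p from 4.81e-14 to 1.16e-05. Counts of called markers shrank under stricter rules. With Bonferroni adjustment, 1 marker rose and 0 fell with BAF250A, and 1 rose and 0 fell with BRD9. Under the empirical null, which widens the expected spread of Wald scores, 0 rose and 0 fell with BAF250A (Vcam1 adjusted p 0.199, Sdc3 0.519, Spry1 0.638), and 1 rose and 0 fell with BRD9 (Megf10 0.266, Vcam1 0.488, Sdc3 0.661). At an adjusted p below 0.01, 2 markers rose and 0 fell with BRD9. With centring and without the low-count filter 2 rose with BRD9, Vcam1 being lost. A minimum mean of 100 left 0 markers different between the knockdowns, because the mean of Pax7 in the BAF250A table, 51.5, lies under it. Over all genes, 1844 rose and 2885 fell with BAF250A, against 553 and 1012 with Bonferroni and 261 and 432 with the empirical null. With BRD9, 879 rose and 1604 fell, against 269 and 671, and 287 and 586. The difference test called 414 genes, 1193 with correlated errors, 123 with Bonferroni and 271 at a minimum mean of 100. Leaving out each library in turn, chosen after seeing the data, gave log2 ratios of library means from 4.142 to 4.844 for Pax7 with BRD9 and from -0.02761 to 0.6163 with BAF250A. Ranges were 1.437 to 1.514 and 1.125 to 1.143 for Spry1, 0.3524 to 0.9213 and -1.152 to -0.6419 for Msx1, and -0.3206 to 3.06 and -2.094 to 1.345 for Pax3, with BAF250A and BRD9. For Pax3 without BRD9 library 1 no log2 ratio exists, because BRD9 library 2 held 0 reads. No paired analysis was possible because the tables hold no columns per library, and the recovered libraries cannot be matched to the letters A and B of the labels. Depth limits Pax3, with at most 15 reads in a library.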

Other observations

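Recovered normalized counts of the BRD9 libraries differed by less than their median spread for Spry1 (946 and 943) and Pax7 (920 and 1231). They lay further apart for Fgfr4 (1719 and 2681), Sox8 (1310 and 3184), Hey1 (520 and 1306) and Spint1 (193 and 76.7). Library 2 was the higher one for Pax7, Fgfr4, Sox8 and Hey1, and library 1 for Spint1. In the BAF250A libraries Hey1 had 132 and 171 and Sox8 135 and 176, beside 136 and 127, and 133 and 70.4, in the scrambled libraries.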
